A study of Mus musculus with 2 samples.

Results

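Innate lymphoid cells of the mouse heart were selected on their transcripts from single CD45+ cells. A cell was taken when at least 2 of Gata3, Rora, Il7r and Il1rl1 reached 100 CPM (reads of the gene per 1000000 reads of that cell) while Cd3g stayed under 50, Ncr1 under 20, Gzma under 100, Lyz2 under 2000 and Cd79a under 200 CPM. This rule gave 97 of 5263 kept cells, a kept cell having at least 500 genes and at most 0.4 of its reads from mitochondrial genes. Because these 9 genes chose the cells, their values below describe the selection and support nothing.

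The cells came from male mice of C57BL/6 background, 1 week after sham surgery or transverse aortic constriction (TAC, a pressure overload of the left ventricle). They were sequenced in 1 library in which a hashtag marked each of 5 groups. The groups were wild-type (WT) sham with 1000 kept cells, CD3e-/- sham with 835, WT TAC with 1615, CD3e-/- TAC with 919, and WT TAC given an antibody that removes CD8+ cells (CD8-depleted TAC) with 894. CD3e-/- mice, named CD3eKO in the deposited notes, lack a signalling chain that T cells need to develop, and carry the loss in every tissue. Each group was 1 hashtagged pool with no replicate, so no difference between groups was tested. Shares are given with exact 95% binomial (Clopper-Pearson) intervals and levels with exact 95% Poisson intervals. Both cover counting error only, and since the table holds reads and not molecules the intervals of the levels are too narrow. The kept cells had a median of 75442 reads in WT sham, 78372 in CD3e-/- sham, 98869 in WT TAC, 117788 in CD3e-/- TAC and 98471 in CD8-depleted TAC, no cell barcode occurred in more than 1 group, and Cd3e had 1521 reads in the 50 T cells of WT sham against 0 in the 3 of CD3e-/- sham. In CD8-depleted TAC, Cd8a still had a read in 4 of 30 T cells, against 7 of 42 in WT TAC.

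Innate lymphoid cells are tissue lymphocytes without a rearranged antigen receptor. Group 2 cells (ILC2) depend on the transcription factors GATA3 and RORα, are kept alive through the IL-7 receptor, and respond through ST2, the product of Il1rl1, to IL-33 that damaged stroma releases. They are known for IL-5, IL-13 and amphiregulin, and in the heart most innate lymphoid cells are of this group. ST2 is also carried by mast cells and regulatory T cells, and Il7r by many lymphocytes, so no single gene of the rule marks these cells alone.

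The sequences upstream of Il1rl1 and Gata3 are shown because these are genes of the rule, and because GATA3 is a factor that binds GATA motifs. Il1rl1 lies on chromosome 1 at chr1:40404864-40465418 on the forward strand (RefSeq, GRCm38.p6), and the RefSeq promoter table lists 2 starts for it, both inside this interval, which also spans transcripts that begin further upstream. The 250 bases before these starts, chr1:40429320-40429569 and chr1:40439379-40439628, and before the start listed for Gata3 on the reverse strand, chr2:9878601-9878850, which likewise lies inside the gene's interval of chr2:9857078-9887953, are given 5′ to 3′ on the gene's strand, with each GATAA, or TTATC on the other strand, in capitals.
Il1rl1 upstream listed start: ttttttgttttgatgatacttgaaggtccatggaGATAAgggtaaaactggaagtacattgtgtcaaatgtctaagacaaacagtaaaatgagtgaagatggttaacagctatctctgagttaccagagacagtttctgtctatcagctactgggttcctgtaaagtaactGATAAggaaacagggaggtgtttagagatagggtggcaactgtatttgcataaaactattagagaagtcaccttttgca
Il1rl1 downstream listed start: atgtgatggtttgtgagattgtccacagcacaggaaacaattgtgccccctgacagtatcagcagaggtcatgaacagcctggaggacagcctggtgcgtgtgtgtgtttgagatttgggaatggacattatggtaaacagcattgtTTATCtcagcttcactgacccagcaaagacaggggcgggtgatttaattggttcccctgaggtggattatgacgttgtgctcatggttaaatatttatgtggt
Gata3: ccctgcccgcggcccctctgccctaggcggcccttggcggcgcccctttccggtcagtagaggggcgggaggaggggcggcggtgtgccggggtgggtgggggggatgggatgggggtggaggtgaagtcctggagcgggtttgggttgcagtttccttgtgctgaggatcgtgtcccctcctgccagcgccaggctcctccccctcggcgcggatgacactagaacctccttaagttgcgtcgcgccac
The first window held GATAA 2 times on the gene's strand and the second held it 1 time on the other strand, whereas the window of Gata3 held none. The letters occurred in 22.6% of all 32851 windows of this length in the table, and not in the windows before Rora and Il7r. A match is no evidence of binding, and its absence says only that these letters are not in the window. The deposited reads are summed per gene, so the starts of Il1rl1 cannot be separated in the values below.

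Most of the 97 cells carried more of the selecting genes than the rule required. All 4 genes reached 100 CPM in 46 cells, 3 in 26 and 2 in 25. Il7r was at or above the limit in 88 cells, Il1rl1 in 87, Gata3 in 72 and Rora in 65. Of the 72 cells with 3 or 4 markers, 33 were from WT sham, 29 from CD3e-/- sham, 3 from WT TAC, 3 from CD3e-/- TAC and 4 from CD8-depleted TAC. The 25 cells with 2 markers were 5, 10, 6, 0 and 4 in the same order, and 14 of them had Il7r with Il1rl1.

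**Figure D1:**
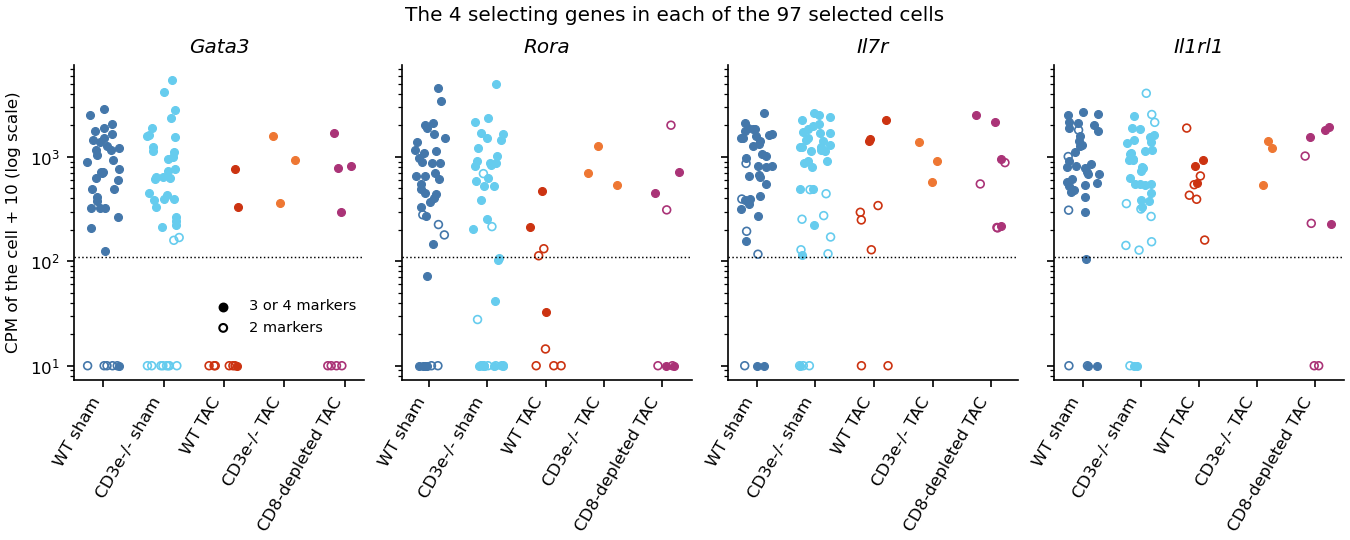
Each point is 1 of the 97 selected cells, by group on the horizontal axis, and the vertical axis is the cell's CPM of the selecting gene plus 10 on a log scale. Filled points are cells with 3 or 4 markers, open points cells with 2, and the dotted line is the limit of 100 CPM. Most open points lie at 0 for Gata3, and the 3 cells of CD3e-/- TAC are above the limit for all 4 genes.

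Across all 97 cells, Gata3 ranged from 0 to 5498 CPM with a median of 478, Rora from 0 to 4953 with a median of 434, Il7r from 0 to 2622 with a median of 861, and Il1rl1 from 0 to 4059 with a median of 771. In WT TAC, Gata3 was at 322, 761 and 0 CPM in the 3 cells with 3 or 4 markers and at 0 in the other 6 cells. In CD3e-/- TAC it was at 934, 1566 and 351 CPM. In CD8-depleted TAC it was at 778, 802, 1670.1 and 289 CPM in the 4 cells with 3 or 4 markers and at 0 in the other 4. The limits did not fall in a gap. Among cells that passed the 5 upper limits, the second-highest marker was at 103 and 107 CPM in the cells just inside and at 99.6 and 97.3 CPM in those just outside. Between 50 and 100 CPM lay 16 cells, and between 100 and 150 CPM lay 9.

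The upper limit on Lyz2, a lysozyme of macrophages, left out 60 cells that passed everything else, with a median Lyz2 of 7550.2 CPM. Csf1r, the macrophage growth factor receptor, was at 100 CPM or more in 55 of these 60, Gata3 in 4 and Il2ra in 3, and only 3 of the 60 had 3 or 4 markers. Of the selected cells 84 had no Lyz2 read and 13 had one, with 1847 and 1796 CPM just inside the limit against 2013 and 2054 just outside. The limit on Cd3g left out 54 cells, 28 of WT sham, 3 of CD3e-/- sham, 13 of WT TAC, 0 of CD3e-/- TAC and 10 of CD8-depleted TAC.

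The label was checked against genes the rule did not use. The 15 genes with the largest ratio of selected to other kept cells, which are not a test since the same cells were chosen by these transcripts, held 3 of the rule's genes and 12 others. Of the tested genes, 7.74% were over 2-fold higher in selected cells. Rnf128, an E3 ubiquitin ligase, was at 611 CPM of the summed reads in selected cells, with a log2 ratio of 4.67 to the other kept cells. Il2ra, the high-affinity chain of the IL-2 receptor, was at 327 against 11.1 CPM. The phosphatase gene Inpp4b was at 502 against 25.7, the chemokine receptor gene Cxcr6 at 243 against 9.53, and Gimap3 at 481 against 30.6. Tnfaip3, which encodes the NF-κB inhibitor A20, was at 1569 against 129 CPM. Ccr8, the receptor of CCL1, stood at 97.1 against 0.405 CPM and had a read in 50 of the 97 cells. Bcl11b, a transcription factor of T cells and ILC2, stood at 169.6 against 7.56 CPM, and Trbc1, a constant segment of the T cell receptor β locus, at 349.6 against 24.3. Gm4956, Skap1 and Socs2 completed the list.

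Genes known from ILC2 were present in most but not all selected cells. At least 3 of 19 such genes reached 100 CPM in 79 of the 97 cells, and 8 of the 79 also carried genes of another lineage. The summed level of the 19 genes was 2494 CPM in selected cells and 3951 in those with 3 or 4 markers. It was 2368 CPM in T cells, 1046 in NK cells and 487 in B cells, so all 97 cells together lay close to T cells. The median number was 6 genes in the 72 cells with 3 or 4 markers and 2 in the 25 cells with 2 markers. Thy1, a surface glycoprotein of lymphocytes, was at 434 CPM and had a read in 59 cells. Ly6a, which encodes Sca-1, was at 369.8 CPM in 55 cells, Il2ra was at 327 in 69, and Cysltr1, a leukotriene receptor, at 193 in 44. Klrg1, an inhibitory receptor of mature ILC2, had a read in 40 cells and ranged from 0 to 1134 CPM. Il9r had a read in 46 cells, Il17rb, part of the IL-25 receptor, in 32, and Icos, a costimulatory receptor, in 24. Ptgdr2, which encodes the prostaglandin receptor CRTH2, had no read in any of the 97 cells, which allows up to 3 reads, whereas Nmur1, the neuromedin U receptor, had reads in 9. Hs3st1 had a read in 30 cells, Deptor in 20 and Pparg in 21.

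Genes of the neighbouring lineages gave the other side of this check. For ILC3, Il23r, Il22 and Il17a had no read, and Nrp1 had reads in 16 cells. Tmem176b and Tmem176a, which stand in that list but were also read in 81.5% and 69.0% of thinned Lyz2-high cells, were at 713 and 463 CPM. For ILC1 and NK cells, Gzmb had no read, Tbx21 had reads in 2 cells and Eomes in 1, and Ccl5 reached 276 CPM of the summed reads although only 5 cells had a read. Klrd1 had a read in 11 cells, Tnfsf10 in 21, Klrk1 in 8 and Xcl1 in 1. In the 72 cells with 3 or 4 markers, Ccl5, Klrd1, Klrk1 and Xcl1 had no read.

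For T cells, the gene segments Trbc1 and Trbc2 had reads in 64 and 53 of the 97 cells, at 349.6 and 254 CPM, while Trdc had none, Cd3e had reads in 5 cells, Trac in 4 and Cd3d in 13. The signalling genes Lat and Zap70 had reads in 61 and 37 cells. In CD3e-/- sham, where T cells were near absent, Trbc1 was at 422 CPM (interval 402 to 444) in 27 of 39 selected cells, against 448 CPM (424 to 472) in 27 of 38 in WT sham. For B cells, Cd79a and Pax5 had no read, Cd79b had reads in 3 cells and Ms4a1 in 1, and Ighm was at 135 CPM in 27. For neutrophils and eosinophils, S100a8, S100a9, Retnlg, Prg2 and Ccr3 had no read, and Cxcr2, Csf3r and Siglecf were at 9.27, 6.01 and 4.08 CPM.

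Not every selected cell fitted the label. With limits set after the values were seen, 23 of the 97 cells carried genes of another lineage at 100 CPM or more. At least 2 of 7 mast cell genes were present in 6 cells, at least 2 of 8 dendritic cell genes in 7, at least 3 of 9 monocyte and macrophage genes in 11, at least 2 of 10 T cell genes in 2, at least 3 of 16 NK genes in 2, and 2 of 10 stromal genes in 1. Of these 23 cells, 20 had 2 markers and 18 had Gata3 under 100 CPM. By group they were 4 in WT sham, 10 in CD3e-/- sham, 5 in WT TAC, 0 in CD3e-/- TAC and 4 in CD8-depleted TAC. Their part in the differences between groups was not tested. Of the 72 cells with 3 or 4 markers, 69 were under all these limits. Values for the 72 are therefore given beside those for all 97 for some genes. Other values of selected cells include the 25 cells with 2 markers, which held 4420209 of the 9811608 summed reads. A cell under the limits could still hold single genes of another lineage, such as Csf1r at 374 CPM in a cell of WT sham.

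Cpa3, the carboxypeptidase of mast cells, had reads in 6 cells, at 13519.9 CPM in WT sham, at 16676, 29153, 29956 and 24392 in CD3e-/- sham and at 20272 in WT TAC. Tpsb2, a mast cell tryptase, also had reads in 6 cells, and the basophil protease gene Mcpt8 had none. Kit, the stem cell factor receptor of mast cells, had reads in 19 cells. Mcpt4 and Cma1, other mast cell proteases, had reads in 48 and 47 cells, and with cells thinned to 1 depth Mcpt4 was read in 35.6% of selected cells, 30.6% of T cells, 24.5% of B cells and 26.6% of Lyz2-high cells. Cd209a, a lectin of dendritic cells, had reads in 11 cells, of which 10 had 2 markers. The limits missed some such cells, since a cell of CD3e-/- sham with Cd209a at 3600.5 CPM and Lyz2 at 1631, and a cell of WT TAC with Cd209a at 3294, were not among the 23. Fscn1 and Ccr7 had reads in 3 cells each, Flt3 in 12 and Zbtb46 in 13, and Xcr1 had none. Dcn, Col1a1 and Col1a2 had reads in 1 cell each, at 22556 CPM for Dcn, Pecam1 and Pdgfra had reads in 28 and 4 cells, and Cdh5, Kdr and Myh6 had none. Among macrophage genes Apoe had a read in all 97 cells and was read in 99.7% of thinned B cells too, whereas Lyz2, Mrc1 and C1qa had reads in 13, 13 and 6 cells. Csf1r had a read in 70 cells with a median of 27.8 CPM, and it was read in 58.8% of thinned B cells. Cell division genes stood mostly in these carriers. Mki67 had reads in 7 cells, and all 6 cells with at least 2 of 7 division genes at 100 CPM also carried another lineage's genes.

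**Figure D2:**
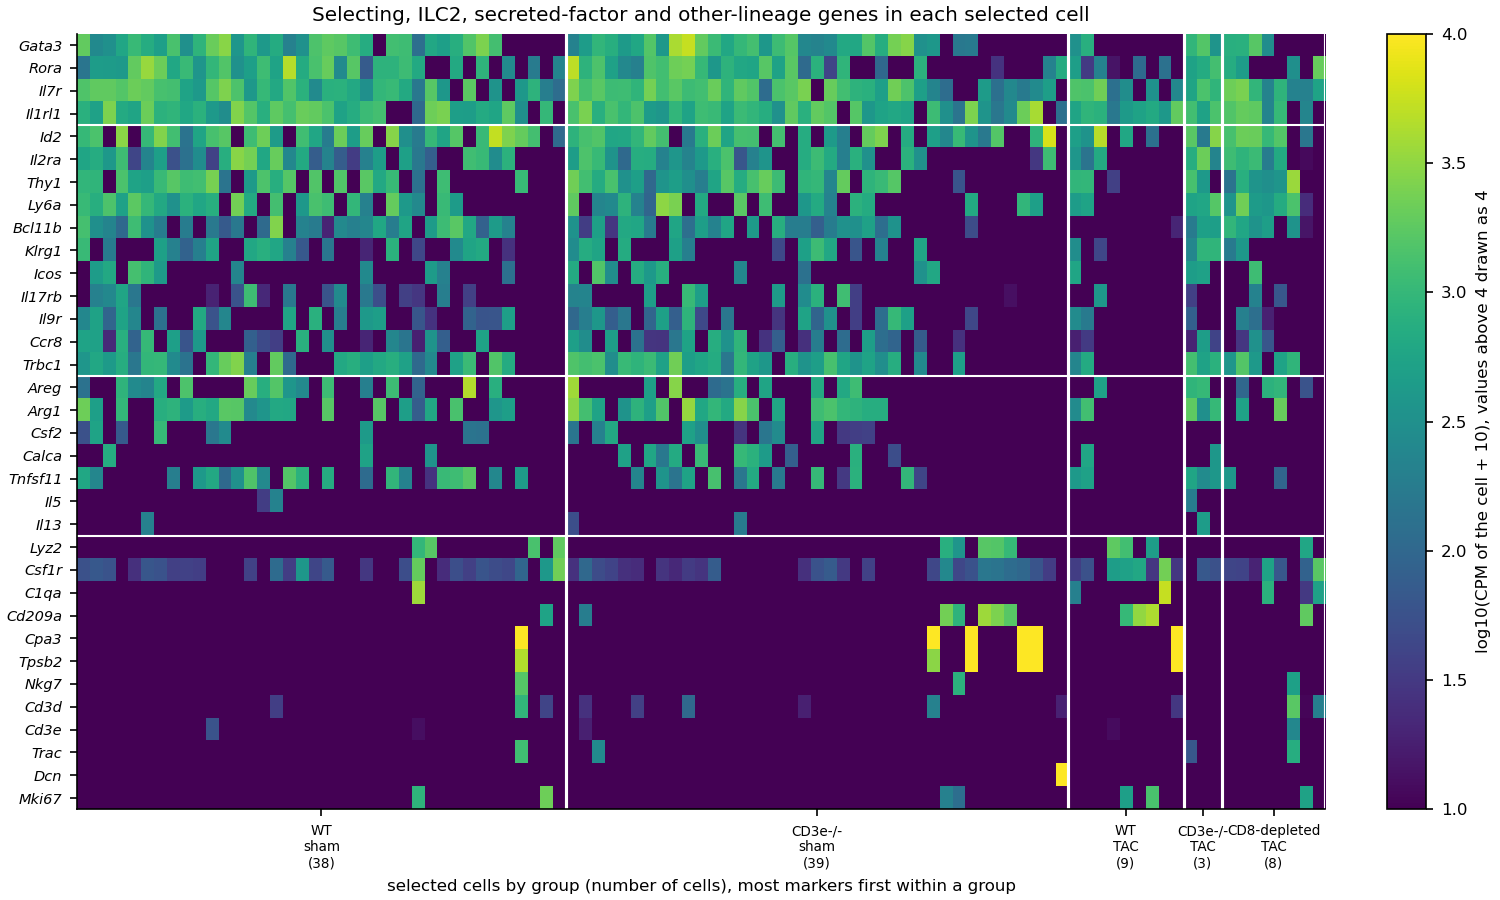
Columns are the 97 selected cells by group, those with most markers first, rows are the selecting genes, ILC2 genes, secreted factors and genes of other lineages, and colour is log10 of CPM plus 10. The mast cell genes Cpa3 and Tpsb2 fill 6 columns, and Cd209a fills columns at the right end of groups, where Il2ra, Thy1, Bcl11b and Trbc1 are mostly at 0.

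The share of selected cells was higher in both sham groups than in any TAC group. They made up 3.80% of kept cells in WT sham (38 cells, interval 2.70 to 5.18) and 4.67% in CD3e-/- sham (39 cells, 3.34 to 6.33). After TAC they made up 0.557% in WT (9 cells, 0.255 to 1.06), 0.326% in CD3e-/- (3 cells, 0.0674 to 0.951) and 0.895% in CD8-depleted mice (8 cells, 0.387 to 1.76). The intervals of the sham groups did not overlap those of the TAC groups, while the intervals within sham and within TAC overlapped. The share in WT sham was 6.82-fold that in WT TAC, and the share in CD3e-/- sham was 14.3-fold that in CD3e-/- TAC. Counting only cells with 3 or 4 markers, the shares were 3.30% and 3.47% in the sham groups and 0.186%, 0.326% and 0.447% after TAC, and the folds were 17.8 and 10.6.

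Both sham groups were also above the TAC groups with other denominators. Among kept cells with Lyz2 under 2000 CPM, selected cells made up 9.31% in WT sham (6.68 to 12.6), 12.4% in CD3e-/- sham (8.95 to 16.5), 1.88% in WT TAC (0.863 to 3.54), 1.28% in CD3e-/- TAC (0.265 to 3.70) and 3.03% in CD8-depleted TAC (1.32 to 5.88). Beside NK cells and B cells alone, which were named by Ncr1 and Cd79a, they made up 24.8% of 153 cells in WT sham, 23.1% of 169 in CD3e-/- sham, 7.96% of 113 in WT TAC, 3.30% of 91 in CD3e-/- TAC and 9.64% of 83 in CD8-depleted TAC. The share of B cells in all kept cells was 1.81-fold higher in WT sham than in WT TAC and 1.78-fold higher in CD3e-/- sham than in CD3e-/- TAC. That of T cells was 1.92-fold higher in WT sham than in WT TAC. NK cells made up 1.20% in WT sham and 0.681% in WT TAC, against 0.958% in CD3e-/- sham and 1.31% in CD3e-/- TAC. Thinned to 37257 reads a cell, the rule gave 4.72% in WT sham, 4.53% in CD3e-/- sham, 0.619% in WT TAC, 0.606% in CD3e-/- TAC and 0.739% in CD8-depleted TAC. A stricter limit on T cell genes left little difference in WT. With the constant segments Trbc1 and Trbc2 and the other T cell receptor and CD3 genes each under 50 CPM, 23 cells remained, 5 in WT sham and 7 in WT TAC, or 0.500% and 0.433% of kept cells, with 1.20% in CD3e-/- sham, 0 in CD3e-/- TAC and 0.112% in CD8-depleted TAC. The 7 cells left in WT TAC included all 6 with 2 markers, which had Gata3 at 0. Of these 6, 5 carried another lineage's genes over the limits, and the other had Cd209a at 3294 CPM. The same limit without Trbc1 and Trbc2 left 90 cells. Shares of a sorted and loaded suspension cannot tell fewer innate lymphoid cells in the heart from more of all other cells.

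**Figure D3:**
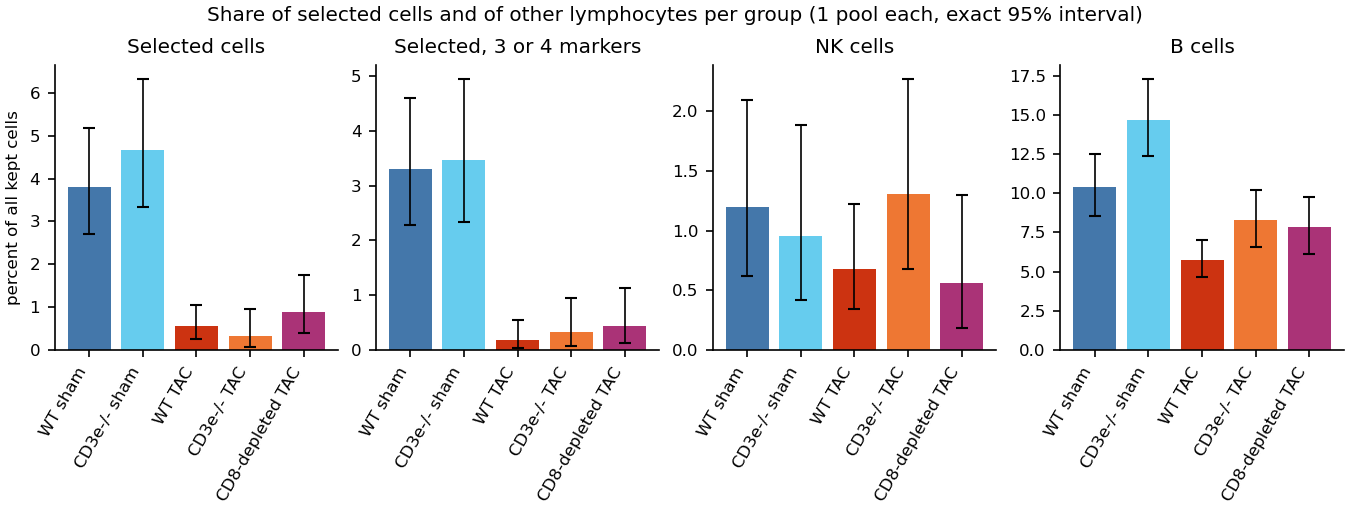
Bars are the percent of all kept cells in each of the 5 groups (1 pool each), with exact 95% binomial intervals, for selected cells, selected cells with 3 or 4 markers, NK cells and B cells, each on its own axis. Selected cells stand at 3.80% and 4.67% in sham and under 1% in each TAC group, while B cells change from 10.4% to 5.76% in WT.

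Arg1, the arginase that ILC2 use in their metabolism, was read in 49 of the 97 cells at 369.9 CPM of the summed reads (358 to 382), and in 47 of the 72 cells with 3 or 4 markers at 654. Areg, which encodes the epithelial growth factor amphiregulin, was read in 34 cells at 259 CPM (249 to 269), and single cells ranged from 0 to 4457 with a median of 0. Tnfsf11, which encodes RANKL, was read in 41 cells, Csf2, which encodes GM-CSF, in 21, Calca, the gene of calcitonin gene-related peptide, in 16, Bmp7 in 33, Lif in 14 and Ccl1 in 11. Tgfb1 was read in 80 cells at 258 CPM, but it was also read in 88.3% of thinned Lyz2-high cells. Tph1, which makes serotonin, was read in 5 cells, of which 1 in WT TAC, with 2 markers, held 598 of the 821 reads. Of the Tph1 reads of all kept cells, selected cells held 15.5% and those with 3 or 4 markers 0.642%.

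The type 2 cytokines themselves were rare. Il5 was read in 3 of the 97 cells, 2 in WT sham at 24.6 and 206 CPM and 1 in CD3e-/- TAC at 174 CPM. Il13 was read in 4 cells, at 199 CPM in WT sham, at 42.0 and 161 CPM in CD3e-/- sham and at 441 CPM in CD3e-/- TAC. No cell had both. Il4 was read in 6 cells, 3 of them with 2 markers, Il6 in 9, Il2 in 15, and Il10 in 1.

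In the sham groups, selected cells held a large part of the reads of several of these genes among kept CD45+ cells. Cells without CD45 were not sequenced, so no part of the whole heart's transcripts is given. They held 3.14% of all reads in WT sham and 3.95% in CD3e-/- sham, and of Csf2 85.1% and 89.7%, of Calca 68.6% and 99.2%, of Tnfsf11 55.2% and 68.7%, of Arg1 49.2% and 56.7%, of Bmp7 43.7% and 61.7% and of Areg 37.6% and 27.2%. For Areg and Csf2 all of this came from cells with 3 or 4 markers in both sham groups. After TAC the part fell for most. In WT TAC, where selected cells held 0.691% of all reads, they held 1.51% of Areg, 0.270% of Arg1 and 0 of 126 Csf2 reads, and Lyz2-high cells held 84.3% of Areg and 95.5% of Arg1. In CD3e-/- TAC, 2 of the 3 selected cells held 13.7% of all 1241 Areg reads, and the Lyz2-high cells the other 86.3%. In CD8-depleted TAC selected cells held 15.3% of Areg, 8.45% without the cells with 2 markers, and Lyz2-high cells held only 25.4%. In the sham groups Lyz2-high cells held 13.9% of Areg in WT and 66.2% in CD3e-/-. Igf1 and Osm came almost wholly from elsewhere, with 0.373% and 0.620% of their reads over all groups in selected cells.

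**Figure D4:**
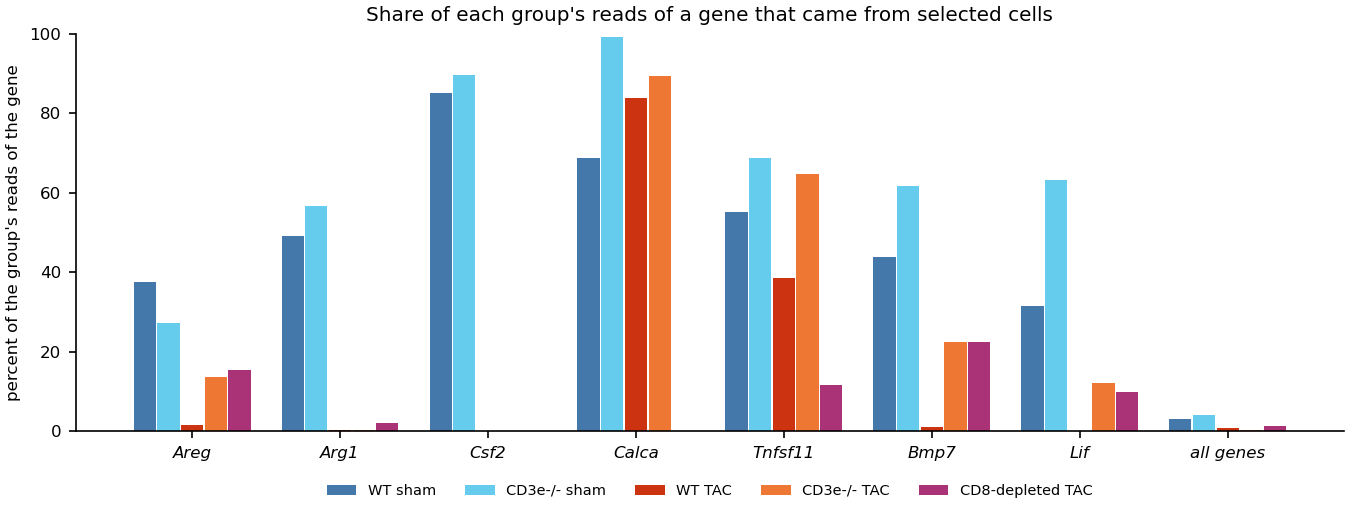
Bars give, for each gene and group, the percent of all the group's reads of that gene that came from selected cells, and the last set gives the percent of all reads. Csf2 stands at 85.1% and 89.7% in the sham groups. It is at 0 in every TAC group, of only 126 reads in WT, 5 in CD3e-/- and 21 in CD8-depleted TAC. Calca stands at 83.9% in WT TAC and 89.3% in CD3e-/- TAC, which is 26 of 31 and 25 of 28 reads, each from 1 selected cell.

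Of 19 cytokine and alarmin receptor genes 15 were at 50 CPM or more. Besides the rule's Il1rl1 and Il7r, the common γ chain Il2rg was at 524 CPM in 90 cells, Il2ra at 327 and the interferon-γ receptor Ifngr1 at 240.4 in 62. The partner chain of ST2, Il1rap, had reads in 9 cells only, and Crlf2, a chain of the TSLP receptor, in 41. Among receptors for neuropeptides, lipids and hormones, the glucocorticoid receptor Nr3c1 was at 283 CPM in 77 cells, Ramp1, which forms the receptor of calcitonin gene-related peptide with Calcrl, at 204 in 67, Ptgir, the prostacyclin receptor, at 120.4 in 49 and Ptger4 at 112 in 46. Calcrl had reads in 15 cells.

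Transcription factors and surface molecules completed the profile. Id2, which innate lymphoid cells need to develop, was at 900.2 CPM in 74 cells, Ets1 at 430.4 in 70 and Bcl11b at 169.6 in 63. Tcf7 had reads in 7 cells, Zbtb16 in 5 and Gfi1 in 18. Of the lymphoid genes, Ptprc, which encodes the CD45 used for sorting, was read in 94 cells at 942 CPM. The GITR gene Tnfrsf18 was read in 59 cells at 166 CPM, Cd200r1 in 50 at 142, and Tnfrsf25, the receptor of TL1A, in 31. Lgals3 reached 336 CPM of the summed reads but was read in 19 cells, 2 of them with 3 or 4 markers, and Ctla4 had no read. Among homing genes Ccr2 was at 1154 CPM in 75 cells, Rgs1 at 586 in 53, Itgb7 at 368 in 80, Itga4 at 289.6 in 71 and Cd44 at 281 in 43. Itgae and Ccr10 had no read, and S1pr1, the receptor of exit from tissue, had reads in 3 cells. Early response genes, which enzymatic digestion of a tissue is known to raise, were read in most cells, and the part of the digestion was not tested. Junb was at 3834 CPM, Fos at 2647, Jun at 1892, Fosb at 1878 and Zfp36 at 1693. The summed level of the 14 early response genes was 19190.3 CPM in WT sham, 20818 in CD3e-/- sham, 17442 in WT TAC, 10121 in CD3e-/- TAC and 9091 in CD8-depleted TAC. Cells with 2 markers held 1249534 of the 1441750 reads of WT TAC and 1117201 of the 1494243 of CD8-depleted TAC. The part of these cells in the sums was not tested. Of the interferon response genes, Ifi27l2a was at 186 CPM in 15 cells, 2 of them with 3 or 4 markers, Bst2 at 52.4, Isg15 at 38.5 and Irf7 at 22.4. Of the division genes, Hmgb2 was at 463 CPM, Mki67 at 158, Top2a at 155, Stmn1 at 138 and Birc5 at 40.7.

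T cells, NK cells and B cells of the same hearts were set beside the selected cells with every cell thinned to the same depth, which kept 87 selected cells, 121 T cells, 40 NK cells and 323 B cells. The classes were themselves cut by Cd3g, Ncr1 and Cd79a, so these are descriptions with counting intervals. Il2ra was read in 70.1% of selected cells (interval 59.4 to 79.5), 28.9% of T cells, 12.5% of NK cells and 5.26% of B cells. Rnf128 was read in 70.1% of selected cells, 17 of 121 T cells, 7.50% of NK cells and 0.619% of B cells. Arg1 was read in 55.2% of selected cells, 9.09% of T cells and no NK cell. Areg was read in 36.8% of selected cells (26.7 to 47.8), 8.26% of T cells, no NK cell and no B cell. Ccr8 was read in 47.1% against 10.7% of T cells, Il9r in 48.3% against 4.96%, Ptgir in 47.1% against 9.09% and Il17rb in 32.2% against 6.61%. Csf2 was read in 21.8% of selected cells against 4.13% of T cells.

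Other lymphocyte genes were as frequent or more so in T cells. Bcl11b was read in 65.5% of selected cells and 72.7% of T cells but in 4 of 40 NK cells, Cxcr6 in 52.9% and 52.9%, and Thy1 in 60.9% and 86.0%. Trbc1 was read in 67.8% of selected cells, 75.2% of T cells and 85.0% of NK cells, and in 0.310% of B cells. Lck, the kinase of the T cell receptor, was read in 17.2% of selected cells against 80.2% of T cells and 82.5% of NK cells, and Klrd1, an NK receptor, in 11.5% against 39.7% and 87.5%.

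**Figure D5:**
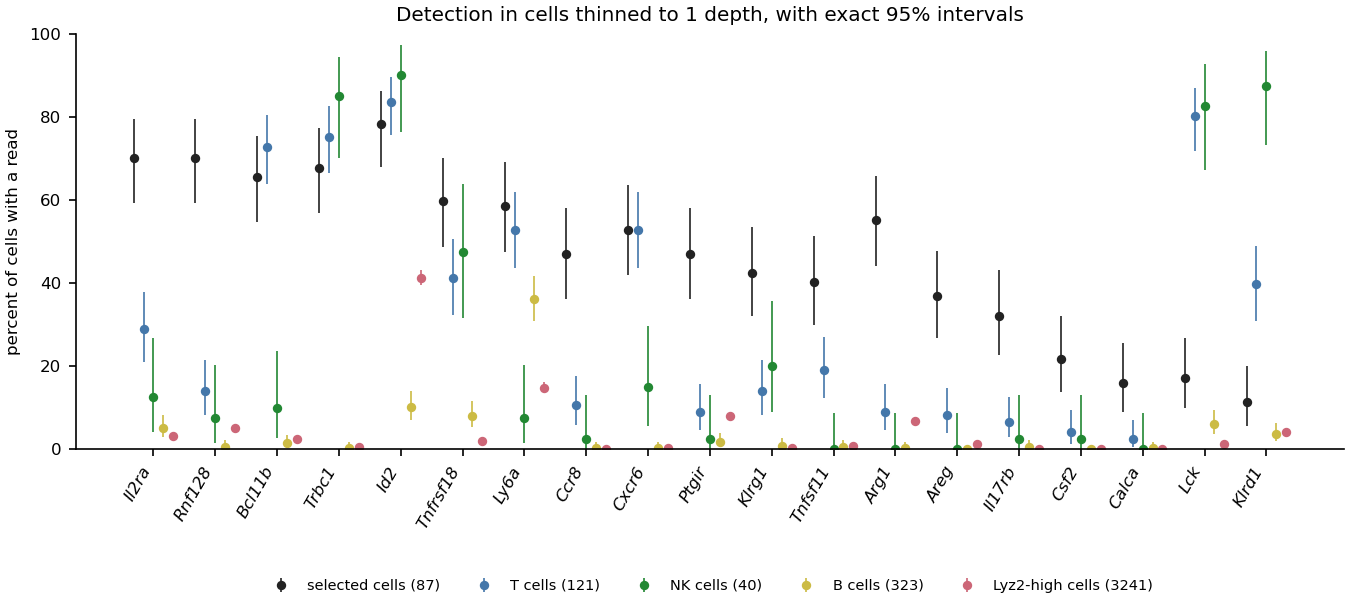
Points are the percent of cells with a read after each cell was thinned to the same number of reads, with exact 95% intervals, for 87 selected cells, 121 T cells, 40 NK cells, 323 B cells and 3241 Lyz2-high cells. Il2ra, Rnf128, Arg1 and Areg are highest in selected cells, Trbc1 and Bcl11b lie near the T cells, and Lck and Klrd1 lie below T and NK cells.

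Gata3 is a gene of the rule and Lyz2 one of its limits, so the values on either side of a Gata3 limit only describe the selection. The 72 cells with Gata3 at 100 CPM or more had Il2ra at a median of 329 CPM and the 25 below it at a median of 0. Klrg1 was read in 38 of 72 and 2 of 25, Thy1 in 54 and 5, Arg1 in 46 and 3, Areg in 31 and 3 and Csf2 in 21 and 0. Lyz2 was read in 3 and 10 cells, and Cd209a in 2 and 9. Cut by Il1rl1, the contrast was smaller, with Il2ra read in 64 of 87 cells above the limit and 5 of 10 below, and Areg in 31 of 87 and 3 of 10. The split by any T cell receptor or CD3 gene at 50 CPM put 74 cells above and 23 below, and Il2ra was read in 64 of 74 and 5 of 23, Areg in 31 and 3, and Cpa3 in 2 and 4.

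The sham groups held 38 and 39 selected cells. Over all genes at 50 CPM or more in either group, 21.3% were past 2-fold in either direction between CD3e-/- sham and WT sham, on the scale of log2 of CPM plus 10, and 23.5% among cells with 3 or 4 markers. Of 16 ILC2 identity genes past this filter, 0 were higher and 2 lower in CD3e-/- sham, with a median log2 ratio of -0.51 against -0.10 over all genes. Among cells with 3 or 4 markers, 2 were higher and 2 lower of 17, the same share as over all genes. In those cells Il2ra was at 459 CPM in WT sham and 555 in CD3e-/- sham, Thy1 at 737 and 864, Klrg1 at 221 and 254, and Areg at 455 and 500.2. Areg was read in 17 of 33 cells of WT sham and 10 of 29 of CD3e-/- sham, so the like sums came from fewer cells in CD3e-/-.

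Cma1 was at 2965 CPM in CD3e-/- sham and 127 in WT sham, Mcpt4 at 2897 and 164, Cst3 at 3641 and 809, Tmem123 at 939.9 and 214, and Ptpre at 142 and 23.7. Without the cells over the limits for another lineage's genes, the log2 ratio went from 4.44 to 0.29 for Cma1 and from 4.06 to 0.21 for Mcpt4, while it was 2.83 for Ptpre. All 8 mast cell genes past the filter and all 3 dendritic cell genes were higher in CD3e-/- sham, where 4 of the 6 cells with mast cell genes and 4 of the 7 with dendritic cell genes stood. Cst3 and Tmem123 turned to lower in CD3e-/- sham among cells with 3 or 4 markers, with log2 ratios of -0.78 and -0.44. Lower in CD3e-/- sham were Csf1r at 55.7 against 342 CPM, Gm42031 at 404 against 1578, Gm49980 at 355 against 1347, Pwwp3a at 32.2 against 147 and Tnks2 at 38.9 against 161, and without those cells the log2 ratios of Pwwp3a and Tnks2 were -1.43 and -2.15. Gm42031 was read in all 39 and all 38 cells, with medians of 336 and 1245 CPM, and reads of a predicted gene may be shared with others, so its value is uncertain. The log2 ratio of Csf1r was -2.42, and it was -1.31 without the deepest cell of each group and -0.19 without the cells that carried another lineage's genes. The deepest cell of WT sham, with 357433 reads, had 3 markers and macrophage genes, and among cells with 3 or 4 markers 8 of 9 macrophage genes and 3 of 4 division genes were lower in CD3e-/- sham.

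A few listed genes differed between the sham groups both in all selected cells and in those with 3 or 4 markers. Calca was at 43.0 CPM in 3 of 38 cells of WT sham (35.9 to 51.1) and at 101 in 11 of 39 cells of CD3e-/- sham (90.5 to 111). Ccl1 was at 63.3 CPM in 6 cells and at 4.96 in 4. Cd69, an early activation and residency molecule, was at 441 CPM in 21 cells and at 130.1 in 15, and Nr3c1 at 508 in 30 and 208 in 33. Tnfsf11 was at 324 CPM in 21 cells against 99.2 in 13, and among cells with 3 or 4 markers at 359 against 189, a difference under 2-fold. Egr1 was at 541 against 1876 CPM.

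After TAC few cells remained, so each ratio rests on 3 to 9 cells on at least 1 side. Over all genes, 42.1% were past 2-fold between WT TAC and WT sham and 60.5% between CD3e-/- TAC and CD3e-/- sham, so a list's count says little. Scaled by median-of-ratios size factors, the share of higher genes among those past 2-fold went from 53.4% to 66.3% in WT, and the median log2 ratio of all genes from 0.04 to 0.32. Lower after TAC in both genotypes were Vps37b, at 55.5 against 987 CPM in WT and 4.08 against 814 in CD3e-/-, and Snhg1, Ppp4r3a, Maff, Slain1, Spry2 and Nfkbid. Maff was at 3.47 CPM against 155 in WT, Slain1 at 0 against 85.0, and Nfkbid at 8.17 against 293 in CD3e-/-. Higher after TAC were Tor3a, at 79.1 CPM with a log2 ratio of 2.31 in WT and 298 against 21.2 in CD3e-/-, with Nenf, Sdhaf2, Eif1a and Prkag2 named in WT and Slc25a38, Zbtb33, Abi3 and Slco3a1 in CD3e-/-. Each comparison has its own sham group, but these genes were named for moving the same way in both genotypes. That agreement was therefore set by the choice. Among cells with 3 or 4 markers, which include all 3 cells of CD3e-/- TAC, Vps37b was lower in both genotypes too, at 281 against 1062 CPM in WT. Among those cells Tor3a, Nenf, Sdhaf2 and Eif1a were not higher after TAC in WT, with log2 ratios of -0.20, -0.68, -0.00 and -0.10.

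Csf2 had no read in any selected cell after TAC, among 1441750, 244935 and 1494243 reads of WT TAC, CD3e-/- TAC and CD8-depleted TAC, against 9 of 38 and 12 of 39 cells in the sham groups. With 9, 3 and 8 cells, a difference in the number of cells with a read was not detectable. Arg1 was read in 2 of 9, 3 of 3 and 2 of 8 cells. Areg was at 509.9 CPM in 1 of the 9 cells of WT TAC, at 907 and 1011 in 2 of the 3 of CD3e-/- TAC, and at 90.3, 848, 927 and 49.3 in 4 of the 8 of CD8-depleted TAC. In CD8-depleted TAC the cells at 848 and 49.3 CPM carried another lineage's genes over the limits, and those at 927 and 49.3 had 2 markers.

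Among TAC groups, 70.0% of genes were past 2-fold between CD3e-/- TAC and WT TAC and 37.9% between CD8-depleted TAC and WT TAC, and both share the WT TAC cells. Lower in CD3e-/- TAC than in WT TAC were H2-Ab1 and H2-Aa, which encode MHC class II, at 0 against 9247 and 8589.6 CPM, Ccl6 at 0 against 1274, Tyrobp at 0 against 1178 and Egr1 at 0 against 1054. Of these, H2-Ab1, H2-Aa, Ccl6 and Tyrobp are genes of antigen-presenting and myeloid cells, and in the 72 cells with 3 or 4 markers they had reads in 4, 2, 1 and 4 cells. With 3 or 4 markers required, none of these 4 genes had a read in either group, while Egr1 had no read in CD3e-/- TAC and 1639 CPM in WT TAC. Higher in CD3e-/- TAC were Areg at 694 against 10.4, Bcl11b at 343 against 0.694, Tmem251, D630039A03Rik and Ercc5. Between CD8-depleted TAC and WT TAC, Bcl11b was at 146 against 0.694 CPM, Unc50, Smim3, Ccdc88b and Phf21a were also higher, and Cma1 at 10.7 against 1350.4, Fn1 at 18.7 against 551, Ccl6, Zfp217 and Fgfr1 were lower. Among cells with 3 or 4 markers Cma1 was at 10.6 against 31.2 CPM, Ccl6 had no read in either group, and the log2 ratio went from -3.52 to -0.26 for Fgfr1 and from -4.29 to 0.16 for Fn1, while Zfp217 was at -4.34. Without the cells over the limits for another lineage's genes Cma1 was at -0.27 and Smim3 went from 3.94 to 0.41. The summed reads of CD8-depleted TAC were 67.8% from 1 cell of 1013662 reads with Cd209a at 1861 CPM, and those of WT TAC 31.0% from 1 cell.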

How the data were processed

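CD45+ heart cells were profiled by TAS-Seq on the BD Rhapsody platform. The deposited counts are reads (not molecules) of each gene in each cell, which the authors corrected for barcode errors and split by hashtag. The submitters' processing notes name cutadapt 2.10, Bowtie2 2.4.2 and GRCm38. Of 5363 columns, 48 (40 called doublets by the authors, 8 without a hashtag) were not used, and no further doublet caller was run. The deposited notes tie hashtags 5 to 9 to the groups. Reads were summed over the selected cells of a group and given as CPM, and ratios as log2 of CPM plus 10 for genes at 50 CPM or more in either group. Thinning drew 37257 reads a cell, the 10th percentile of the selected cells. T cells had Cd3g, NK cells Ncr1 and B cells Cd79a at or above the rule's limit, with Lyz2 under 2000 CPM and, for NK and B cells, Cd3g under 50 CPM. The calculation of ratios and intervals was tested on simulated Poisson and binomial counts. These lack the spread between cells, so only the arithmetic was checked. Named were the rule's 9 genes, 10 further genes, the 5 highest of each list, the 15 leading genes and, per comparison, the 5 highest and 5 lowest ratios among genes read in at least 50% of cells of the higher group, for TAC against sham the same way in both genotypes. Other genes of the lists are named as examples, chosen after their values were seen. A few genes of the lists are not reported here. Members and lists were chosen with earlier results of these data known. Alternatives varied the limits, filters, pseudocount, scaling and cells, and 2 were chosen after seeing the data: leaving out cells with another lineage's genes, and a T cell gene limit without Trbc1 and Trbc2. Python 3.11.15, numpy 2.4.6 and scipy 1.17.1 were used.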

Additional observations from a re-analysis of the deposited data

Results flagged for a closer look

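Of 36 named genes, 12 were past 2-fold in opposite directions after TAC in the 2 genotypes, lower in WT and higher in CD3e-/- mice. Of the 36, 33 were at 50 CPM or more in either group of both comparisons, so the share was 36.4%, against 5.65% of the 3662 genes at that level moving the same way and 14.9% in opposite directions either way. The named genes were chosen with these data known and several mark the same cells. With 1 pool a group the difference was not tested. The log2 ratios of TAC to sham in WT and in CD3e-/- were -4.35 and 1.37 for Areg, -2.60 and 2.10 for Klrg1, -1.03 and 1.47 for Icos, -2.91 and 1.43 for Il2ra, -2.83 and 1.32 for Arg1 and -4.79 and 1.25 for Bcl11b. They were -3.12 and 1.21 for Ly6a, -2.48 and 2.02 for Tnfsf11, -3.23 and 1.12 for Trbc1, -2.44 and 1.90 for Trbc2, -3.16 and 1.89 for Rnf128 and -3.09 and 1.53 for Skap1. The 9 selected cells of WT TAC included 6 with 2 markers, and the 3 of CD3e-/- TAC none. Among cells with 3 or 4 markers, which were 3 in each of these TAC groups, 9 of the 12 genes still had opposite signs. In WT 7 of these were within 1 of 0 on the log2 scale, such as Il2ra at -0.35 and Arg1 at -0.25. Areg at -2.40 and Bcl11b at -5.03 were not, but in CD3e-/- they were at 0.46 and 0.38, under 2-fold. None of the 9 was thus past 2-fold in both genotypes.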

How the results depend on the processing

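The higher share in sham than in TAC of the same genotype held in direction under all 9 alternatives. In WT it was only 0.500% against 0.433% when T cell genes, Trbc1 and Trbc2 included, were under 50 CPM. Under that limit 6 of the 7 cells of WT TAC had 2 markers. There CD3e-/- sham had 1.20%, CD8-depleted TAC 0.112% and CD3e-/- TAC 0, so that its comparisons gave no value. The share in WT TAC was 0.186% with 3 of 4 markers required and 0.248% without cells over the limits for another lineage's genes, which still left in a cell with Cd209a at 3294 CPM. Genes past 2-fold without a filter on low values were 4295 for WT TAC and 6342 for CD3e-/- TAC against their sham, 2562 between shams, 6656 for CD3e-/- TAC and 4103 for CD8-depleted TAC against WT TAC. With 50 CPM added they were 1047 for WT TAC against sham, 301 between shams and 905 for CD8-depleted TAC against WT TAC. The last count, 1882 as reported, was 3549 with 3 of 4 markers, 3226 with 200 CPM, 2874 with the mean of single cells, 3141 without the deepest cells and 3564 without other lineages, and the T cell gene limit gave 2832 between shams. Directions turned for 14 ratios under at least 1 alternative. With 3 of 4 markers the log2 ratio was 1.52 for Icos, 0.06 for Tnfsf11, 0.14 for Trbc2, -0.10 for Eif1a, -0.68 for Nenf, -0.00 for Sdhaf2 and -0.20 for Tor3a in WT TAC against sham, -0.78 for Cst3 and -0.44 for Tmem123 between shams, and 0.16 for Fn1 in CD8-depleted TAC against WT TAC. Without other lineages it was 0.67 for Icos, -0.95 for Tor3a, -0.33 for Tmem123 and 0.19 for Fn1. It was 0.06 for Csf1r between shams with 200 CPM, 0.22 for Snhg1 in WT with the T cell gene limit, and -1.27 for Slco3a1 and -0.95 for Tor3a in CD3e-/- mice without the deepest cell. The causes were not tested. Of the levels by group under alternatives, 754 moved beyond their interval and 290 did not. No paired analysis was possible because each group is 1 pool. Groups of 3 to 9 cells and reads without molecular counts limit every TAC value.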
